A study of Mus musculus with 4 samples.

Results

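The genes described here encode the subunits of heterotrimeric G proteins and 2 families of proteins that regulate them, in RNA sequenced from the olfactory bulb of mice in which the RNA editing site of *Unc80* had been fixed in 1 of its forms. A list of 42 genes, chosen by symbol, was looked up in the authors' deposited table of 15818 genes, and 41 of them had a row: 10 G alpha genes, 4 G beta genes, 9 G gamma genes, 15 genes of the regulators of G protein signaling (RGS) and 3 Gpsm genes. *Gna14*, a member of the Gq family, had no row and was not analysed here. The 4 libraries came from male knock-in mice aged 2 to 5 months, made by CRISPR/Cas9 in fertilized B6D2F1 eggs. In Unc80 S/S mice, labelled unedited, both alleles carry a different serine codon (TCC in place of AGC) that cannot be recoded, and in Unc80 G/G mice, labelled edited, both carry the glycine codon GGC that editing would otherwise give. The alleles are present in every cell of the body, and no wild-type bulb is among the libraries, so each genotype is compared only with the other. Each genotype has 2 libraries, and samples are described as pooled from 3 mice each, so that libraries differ as pools and not as single mice. The comparison asks which transcripts of the bulb differ between the unedited and the recoded form of *Unc80*, whose protein is part of the NALCN sodium leak channel complex that G protein-coupled receptors regulate.

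A heterotrimeric G protein couples a receptor in the membrane to enzymes and channels inside the cell. The activated receptor makes the alpha subunit exchange GDP for GTP, alpha separates from the beta and gamma dimer, and both act on their own effectors until alpha hydrolyses the GTP. RGS proteins speed that hydrolysis and so shorten the signal, whereas Gpsm proteins carry GoLoco motifs that hold Gi-type alpha subunits in the GDP-bound state, free of beta and gamma. In the olfactory bulb, dopamine, GABA, glutamate, serotonin, noradrenaline and acetylcholine each have some receptors that signal through such proteins.

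The ends of the coding sequences of the G alpha members are shown because the last residues of alpha touch the receptor. Below are the last 30 coding bases before the stop codon of the G alpha members in the table, from GENCODE M21 transcripts (GRCm38), 5′ to 3′, with the codon for the residue 4th from the end in capitals. For each gene 1 annotated transcript was used, and *Gnai2*, *Gnao1*, *Gnas* and *Gna13* have others that end differently. The codon reads as cysteine in *Gnai1*, *Gnai2*, *Gnai3* and *Gnao1*, which is the residue that pertussis toxin modifies, and as isoleucine in *Gnaz*, the member of the Gi/o family that the toxin does not affect.
Gnai1: aagaataacctaaaagacTGTggtctcttc
Gnai2: aagaacaacctgaaggacTGTggcctcttc
Gnai3: aaaaacaacttaaaggaaTGTgggctttat
Gnao1: gccaacaatctccggggcTGCggcttgtac
Gnaz: cagaacaatctcaagtacATCggcctttgc
Gnas: cgcatgcatctccgccaaTACgagctgctc
Gnaq: cagctgaacctgaaggagTACaatctggtc
Gna11: cagctgaacctgaaggagTACaacctggtg
Gna12: caggagaacctgaaagacATCatgctgcag
Gna13: catgacaacctgaagcagCTCatgctgcag
*Gnas*, *Gnaq* and *Gna11* carry a tyrosine codon there, *Gna12* an isoleucine codon and *Gna13* a leucine codon. This codon alone therefore does not separate the families.

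The G gamma members end in a prenylation signal of 4 codons, shown in capitals within the last 30 coding bases, that begins with cysteine and anchors the dimer in the membrane. Its last residue decides the lipid, with leucine giving geranylgeranyl and serine giving the shorter farnesyl group.
Gng2: cgggagaagaagttcttcTGCGCCATCCTT
Gng3: cgggagaagaagttcttcTGTGCGCTCCTC
Gng4: cgggagaagaagttcttcTGCACCATCCTC
Gng5: ttcagaccccagaaagtcTGCTCCTTTTTG
Gng7: ttcaaagacaaaaagcctTGCATAATTCTC
Gng10: ttccgggagcccaggtccTGTGCTCTACTT
Gng12: ttcaaggataagaagaccTGCATCATCTTA
Gng11: ttcaaagaaaagggcagcTGTGTCATTTCA
Gngt2: ttcaaggagaaaggcactTGTGTGCTAAGC
A leucine codon stands last in 7 of these genes and a serine codon in 2, *Gng11* and *Gngt2*.

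The files give 1 mean per genotype and gene, in counts per 1e6 counted reads (CPM), and so no spread between libraries for most genes. For 2209 of the 15818 genes (14.0%) the means of both genotypes could be written as whole reads of 2 libraries each, which gives single-library values. The 4 libraries held 35465913 to 38051810 sequenced reads and 24738078 to 26479648 counted reads. A recovered library cannot be matched to a replicate label, so within a genotype the larger and the smaller library are told apart by their counted reads. A log2 ratio is a difference and sets Unc80 G/G against Unc80 S/S (negative where Unc80 G/G was lower), while a value in CPM is a level. Where a pair of levels carries no label, Unc80 S/S comes first. The intervals of ratios given below are 95% intervals from the summed reads of the genotypes (exact Clopper-Pearson intervals for the share of reads in Unc80 G/G) and cover counting error only. Of the marker lists looked up to check the tissue, those of granule and periglomerular cells (3689 and 3680 CPM summed in Unc80 S/S and Unc80 G/G) and of mitral and tufted cells (1611 and 1566 CPM) had a row for every gene. The list whose sum differed by 1.2-fold or more was that of choroid plexus, at 6.38 CPM (S/S) and 9.68 CPM (G/G). This sum is over 4 of 5 listed genes and differed mostly through *Ttr*, the transthyretin gene, at 0.880 and 3.64 CPM. Also higher in Unc80 G/G were *Tmem72* (1.274 and 2.034 CPM, interval 1.160 to 2.209) and *Kcnj13* (1.485 and 1.576 CPM, interval 0.764 to 1.469). *Kl* was lower, with 2.74 and 2.43 CPM. No gene had a mean of the genotypes under 1.01 CPM. The Unc80 S/S mean of *Ttr* is below that level, so *Ttr* has its row through its Unc80 G/G mean. The sum over the 5 pericyte and smooth muscle markers, most of it from *Rgs5*, was 122.8 CPM (S/S) and 123.1 CPM (G/G). But 4 of the 5 had a lower mean in Unc80 G/G, and the median log2 ratio was -0.24. The interval left out 1 for *Acta2*, *Pdgfrb* and *Myh11*, which were lower, and for *Rgs5*, which was higher. That of *Tagln*, also lower, was 0.683 to 1.020.

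Transcripts of the G protein machinery stood at nearly equal levels in the bulbs of the 2 genotypes. The median log2 ratio was -0.02 over the 41 genes, beside -0.0052 over all 15818 genes, and the median size of the log2 ratio was 0.04, beside 0.05 over all genes. A difference of 1.2-fold or more was found for 3 of the 41 genes, *Gpsm3*, *Gngt2* and *Rgs14*, where 5.74% of all genes differ by as much. At 1.1-fold or more there were 4, with *Rgs20* added, beside 18.1% of all genes. A lower mean in Unc80 G/G, by any amount, was found for 26 of the 41 genes and for 52.8% of all genes. The 3 genes past 1.2-fold had a mean under 5 CPM, a level at which 23.4% of all genes pass 1.2-fold. Of the 38 genes at 5 CPM or more none passed 1.2-fold, beside 1.07% of all genes at that level, and the largest difference among them was that of *Rgs20*, at 1.13-fold. In bulk tissue, fewer cells of a type and less RNA per cell cannot be told apart, so neither equal nor unequal levels say which cells hold the transcripts.

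**Figure D1:**
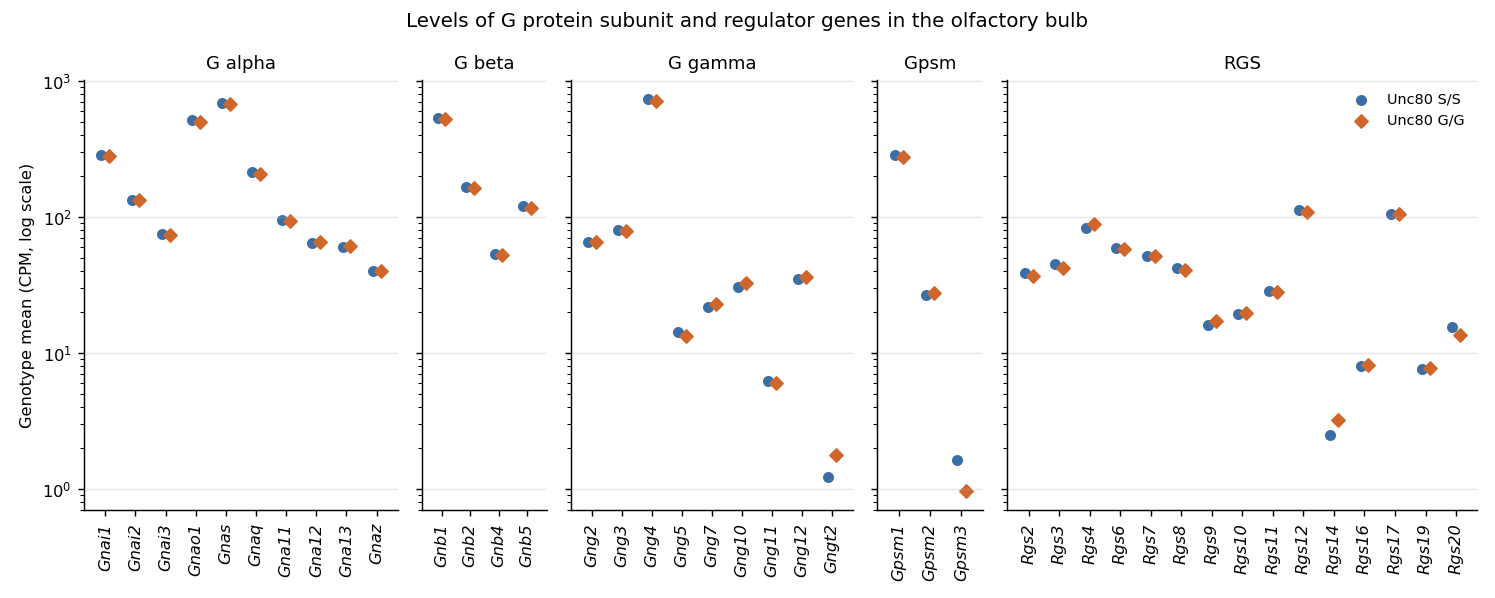
Mean level of each of the 41 genes (CPM, log scale) in Unc80 S/S (circles) and Unc80 G/G (diamonds), by class. Each point is the authors' mean of 2 libraries and has no error bar, and the points of a gene lie close together except for *Gngt2*, *Gpsm3* and *Rgs14* at the lower end.

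**Figure D2:**
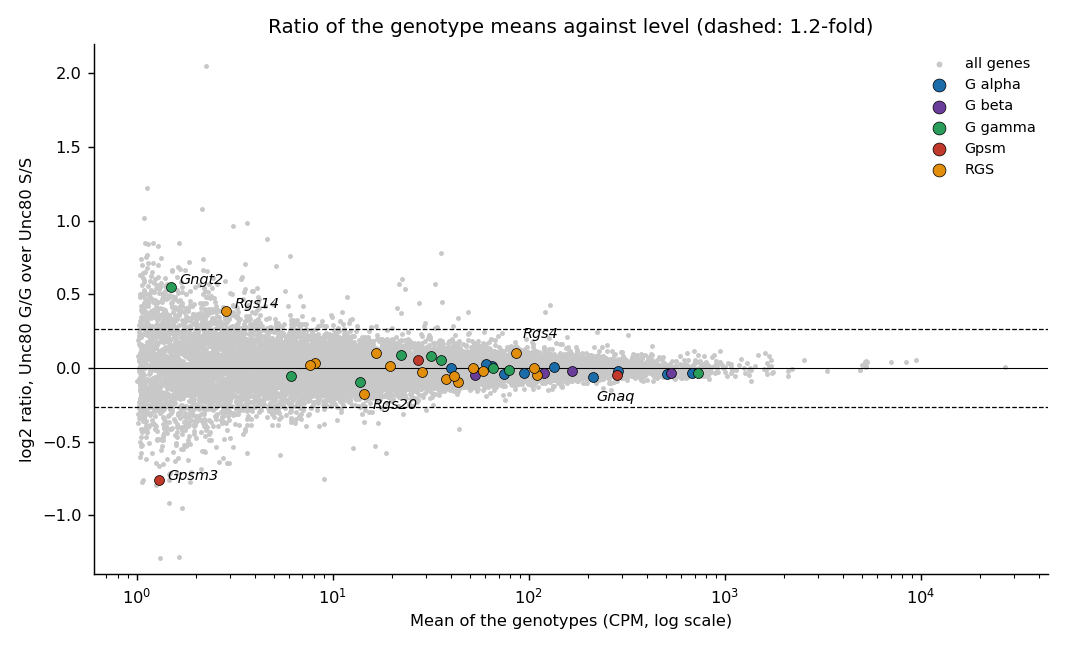
Log2 ratio of Unc80 G/G over Unc80 S/S against the mean level (CPM, log scale) for all 15818 genes (grey) and the 41 genes by class. The dashed lines mark 1.2-fold, which 3 members pass, and the grey cloud widens to the left, where those 3 lie.

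Among the G alpha genes, which set the identity of the G protein, every genotype mean of Unc80 G/G lay within 4.25% of that of Unc80 S/S. *Gnas*, whose product stimulates adenylyl cyclase, had 691.1 CPM (S/S) and 674.7 CPM (G/G) (log2 ratio -0.03, interval of the ratio 0.962 to 0.991). *Gnao1*, which encodes the alpha subunit best known for its abundance in brain, had 516.3 and 502.4 CPM (log2 ratio -0.04, interval 0.956 to 0.990). The furthest from 1 was *Gnaq*, whose product activates phospholipase C beta, with 215.8 and 206.7 CPM (log2 ratio -0.06, interval 0.932 to 0.984). These 3 were the alpha genes whose counting interval left out 1, and all 3 lie at 100 CPM or more, where 34.3% of all genes have such an interval. At that level the libraries of a genotype differed with an SD of 0.05 on the log2 scale, in the 111 of 2300 genes with recovered reads (median level 160.7 CPM). The SD is also the standard error of a difference between means of 2 libraries, so *Gnas* and *Gnao1* lay within 1 SD and *Gnaq* within 2.

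The other alpha genes gave log2 ratios of -0.04 to 0.03. *Gna11*, the close relative of *Gnaq*, had 95.1 CPM (S/S) and 93.0 CPM (G/G). *Gna12* had 64.6 and 65.1 CPM and *Gna13* 60.0 and 61.2 CPM. These last genes form the G12/13 family, and they were the family in which both members stood a little higher in Unc80 G/G. *Gnai2* had 133.9 and 134.5 CPM, and *Gnaz*, an alpha subunit with slow GTP hydrolysis, had 40.0 CPM in both genotypes.

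For *Gnai1* and *Gnai3*, whose products inhibit adenylyl cyclase, reads of single libraries were recovered. *Gnai1* had 280.0 and 292.3 CPM in the larger and the smaller library of Unc80 S/S, and 288.5 and 275.0 CPM in those of Unc80 G/G. *Gnai3* had 77.2 and 74.2 CPM for Unc80 S/S and 75.4 and 71.8 CPM for Unc80 G/G, in the same order. The libraries of the genotypes overlapped for both genes. The quasi-likelihood test of edgeR over the 2209 genes with recovered reads gave a log2 fold change of -0.02 for *Gnai1* (SE 0.04, 95% interval -0.11 to 0.07, adjusted p = 0.99) and of -0.04 for *Gnai3* (SE 0.05, 95% interval -0.15 to 0.07, adjusted p = 0.99). Each of these intervals includes 0.

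Because CPM grows with transcript length, levels of different genes were compared as CPM per kilobase of exon. On that scale the Gi/o family held 58.4% of the summed level of the 10 alpha genes in Unc80 S/S, and the share was 58.5% for Unc80 G/G. The Gs gene held 17.4% and 17.3%, the Gq/11 genes 16.3% and 16.1%, and the G12/13 genes 7.94% and 8.18%. *Gnai1* had the highest level per kilobase of the alpha genes, at 91.3 and 89.9 CPM per kilobase. *Gnas* followed at 61.8 and 60.3, and *Gnao1* at 46.7 and 45.5 CPM per kilobase. The order depends on the length used, since *Gnas* and *Gnao1* have many transcripts and long exon unions. By the longest coding transcript *Gnas* came first, at 185 and 181 CPM per kilobase, with *Gnao1* at 93.4 and 90.9 and *Gnai1* at 91.3 and 89.9, and the Gi/o family held 50% and 50.2%. With either length the shares of the genotypes lay close together. Exons on the opposite strand cover 22.0% of the exon bases of *Gnas*, and whether the counting used strand is not stated, so part of its reads may belong to antisense transcripts.

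**Figure D3:**
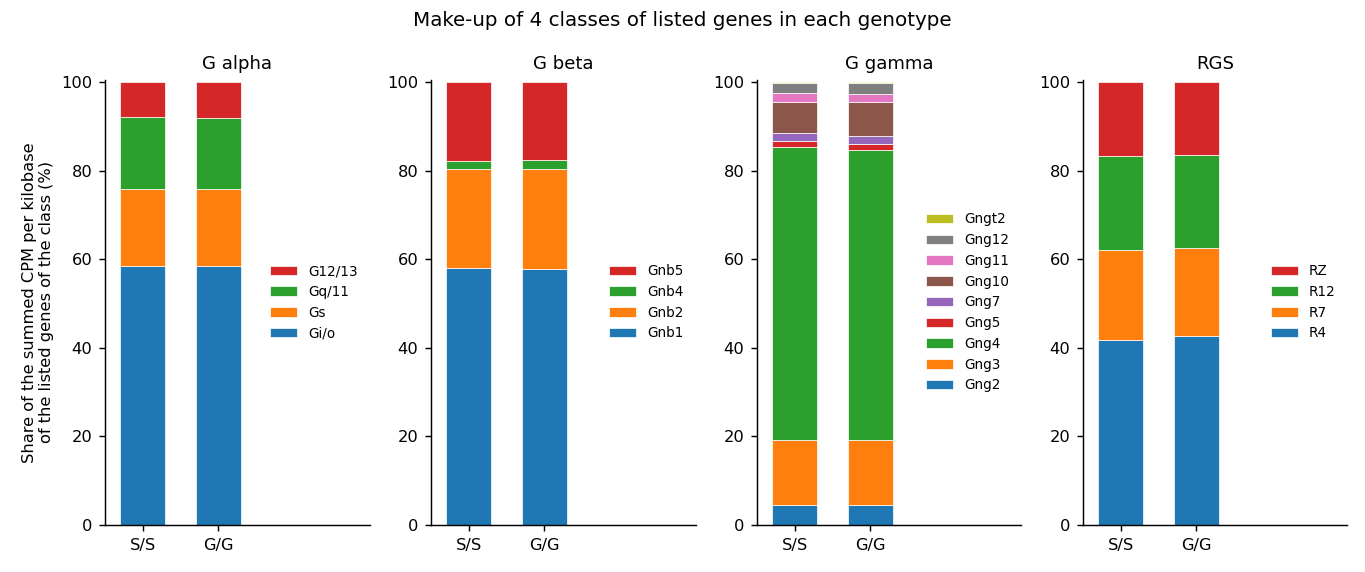
Share (%) of the summed level per kilobase of exon held by each family or gene among the listed genes of 4 classes, in Unc80 S/S and Unc80 G/G, from the genotype means. The bars of the genotypes are nearly alike, with the Gi/o family at 58.4% and 58.5% of the alpha genes and *Gng4* at 66.1% and 65.4% of the gamma genes.

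The 4 G beta genes all stood slightly lower in Unc80 G/G, by 1.23% to 3.08%. *Gnb1*, the main beta subunit of the brain, had 538.5 CPM (S/S) and 526.2 CPM (G/G) (log2 ratio -0.03, interval 0.961 to 0.994). *Gnb2* had 166.4 and 164.4 CPM, and *Gnb4* had 53.8 and 52.2 CPM. *Gnb5* differs from the others in that its protein pairs with the R7 family of RGS proteins in place of a gamma subunit, and it had 120.3 and 117.4 CPM. Among all genes at 100 CPM or more, the level of 3 of these 4, 55.7% stood lower in Unc80 G/G, and 11 of the 12 members at that level did. The exception was *Gnai2*. None of these 12 differed by more than 1.044-fold, and none lay beyond 2 SD of the libraries of a genotype, where 3.30% of all genes at that level lie. Per kilobase of exon *Gnb1* held 57.9% and 57.8% of the summed level of the beta genes, *Gnb2* 22.4% and 22.6%, *Gnb5* 17.7% in both genotypes and *Gnb4* 1.95% and 1.93%.

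*Gng4* dominated the G gamma genes in both genotypes. It had 735.9 CPM (S/S) and 719.6 CPM (G/G) (log2 ratio -0.03, interval 0.964 to 0.992), the highest mean of any of the 41 genes in CPM, and per kilobase of exon it held 66.1% and 65.4% of the summed level of the 9 gamma genes. *Gng3*, a gamma subunit of neurons, came next per kilobase, at 48.8 and 48.2 CPM per kilobase, or 14.6% of the class in both genotypes. By the longest coding transcript it lay beside *Gng12*, at 48.8 and 48.2 for *Gng3* and 47.0 and 48.9 CPM per kilobase for *Gng12*. Its recovered libraries had 79.8 and 80.5 CPM in Unc80 S/S and 80.2 and 78.1 CPM in Unc80 G/G. They overlapped, with a log2 fold change of -0.02 (SE 0.05, 95% interval -0.12 to 0.08, adjusted p = 0.99 from edgeR). Exons of *Bscl2* on the opposite strand cover 24.2% of the exon bases of *Gng3*, and *Bscl2* itself had 42.6 and 40.0 CPM.

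The remaining gamma genes whose proteins end in leucine went either way between the genotypes by small amounts. *Gng7*, which in the mouse striatum serves the coupling of dopamine and adenosine receptors to cyclic AMP, had 21.6 CPM (S/S) and 22.98 CPM (G/G) (log2 ratio 0.09, interval 0.979 to 1.156). *Gng10* had 30.7 and 32.5 CPM (log2 ratio 0.08), and exons of the gene model Gm20503 on the same strand cover 72.0% of its exon bases, so its reads are uncertain. *Gng5* had 14.3 and 13.4 CPM (log2 ratio -0.09, interval 0.844 to 1.044). *Gng12* (34.8 and 36.1 CPM) and *Gng2* (65.9 and 66.1 CPM) lay closer together, and the intervals of all 5 genes include 1. Exons on the opposite strand cover 20.4% of the exon bases of *Gng2*, as they do 13.3% for *Gna12* and 10.1% for *Rgs16*.

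The gamma genes whose proteins end in serine were the ones of lowest level in CPM, but not both were so per kilobase of exon. On that scale *Gng11* had 6.81 and 6.56, above *Gng5* (5.16 and 4.84) and *Gng7* (5.70 and 6.07). For *Gng11*, reads of all 4 libraries were recovered, with 155 and 168 reads for the larger and smaller library of Unc80 S/S and 148 and 154 reads for those of Unc80 G/G. These come to 5.85 and 6.66 CPM in Unc80 S/S and 5.84 and 6.23 CPM in Unc80 G/G, and the libraries overlapped (log2 fold change -0.05, SE 0.13, 95% interval -0.32 to 0.22, adjusted p = 0.99 from edgeR). *Gngt2*, first known as the gamma subunit of cone transducin, lies on chromosome 11 from 95837216 to 95845734 (GRCm38, GENCODE M21). It had a mean of 1.22 CPM (S/S) and 1.78 CPM (G/G), 1.46-fold, from about 63 and 89 reads (interval of the ratio 1.045 to 2.048). The Unc80 G/G mean was recovered as 42 and 47 reads, or 1.66 and 1.90 CPM, while the Unc80 S/S mean could not be split into whole reads, so the libraries of that genotype are not known. Both Unc80 G/G libraries lay above the Unc80 S/S mean, but without the Unc80 S/S libraries this does not show whether the genotypes overlapped. Exons of *Abi3* on the opposite strand cover 12.5% of the exon bases of *Gngt2*, and *Abi3* had 2.41 and 2.73 CPM.

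**Figure D4:**
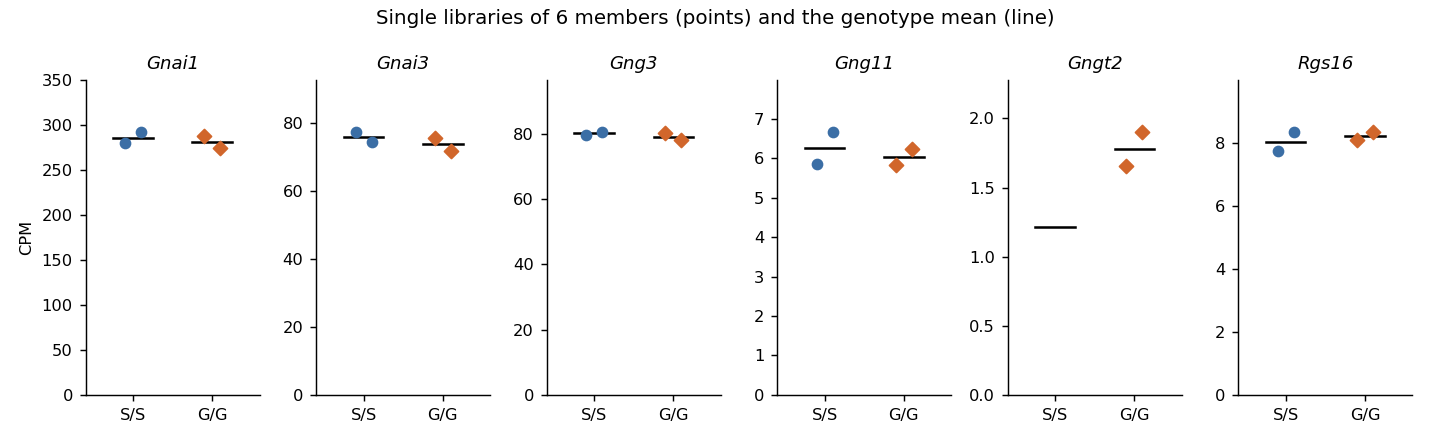
Level (CPM, linear axes from 0) in each recovered library of Unc80 S/S (circles) and Unc80 G/G (diamonds) for 6 genes, with the genotype mean as a line. The libraries of the genotypes overlap for *Gnai1*, *Gnai3*, *Gng3*, *Gng11* and *Rgs16*, and for *Gngt2* the Unc80 S/S libraries could not be recovered and only their mean is drawn.

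The 3 Gpsm genes spanned the widest range of log2 ratios of any class, from -0.76 to 0.05. *Gpsm1*, whose protein is also known as AGS3, had 286.1 CPM (S/S) and 276.7 CPM (G/G) (log2 ratio -0.05, interval 0.945 to 0.990). *Gpsm2*, which encodes the spindle orientation protein LGN, had 26.6 and 27.6 CPM (log2 ratio 0.05, interval 0.962 to 1.118). Per kilobase of exon, *Gpsm1* held 86.9% of the class in both genotypes.

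*Gpsm3*, the short member of the family, gave the largest difference of the 41 genes and is named in the authors' paper among genes that differed. It lies on chromosome 17 from 34589806 to 34591754 (GRCm38, GENCODE M21) and had 1.64 CPM (S/S) and 0.965 CPM (G/G), 1.70-fold lower in Unc80 G/G (log2 ratio -0.76). The means stand for about 85 and 48 reads, each over 2 libraries, with an interval of the ratio of 0.401 to 0.840. It was the only member at 1.5-fold or more, beside 0.518% of all genes of any level. Such shares depend on level, since 5.74% of all genes but 23.4% of those under 5 CPM pass 1.2-fold. The 1.5-fold share under 5 CPM is not given here. Its libraries could not be recovered, so its spread within a genotype is not known and no test was made. In the 1036 genes under 5 CPM with recovered reads, the SD between libraries of a genotype was 0.25 (median level 2.025 CPM). Of the 3 members at that level, *Gpsm3* and *Gngt2* lay beyond 2 SD and *Rgs14* did not. The share of all genes under 5 CPM beyond 2 SD is not given here. The table holds no gene with a mean of the genotypes under 1.01 CPM, and the Unc80 G/G mean of *Gpsm3* is below that level, so the gene has its row through its Unc80 S/S mean. Exons of *Pbx2*, a homeobox gene on the same strand, cover 16.9% of the exon bases of *Gpsm3*, and *Pbx2* had 38.7 and 37.7 CPM, a mean 29.4 times that of *Gpsm3*. How reads in the shared bases were divided is not stated, and their part in the difference was not tested.

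*Gpsm3* and *Gngt2* are also transcribed in cells of the immune system, and their differences had opposite directions. The summed level of 6 microglia markers was 208.4 CPM (S/S) and 206.2 CPM (G/G), and none of the 6 differed by 1.2-fold. Of 5 blood leukocyte markers 4 had a row, with a sum of 42.9 and 41.6 CPM. Of these 4, *Ptprc* (4.19 and 5.07 CPM, interval 1.004 to 1.456) and *Cd52* (0.970 and 1.32 CPM, interval 0.930 to 2.010) were past 1.2-fold toward Unc80 G/G, at a level where 23.4% of all genes pass it in either direction. The Unc80 S/S mean of *Cd52* is below 1.01 CPM, the lowest mean of the genotypes of any gene, so *Cd52* has its row through its Unc80 G/G mean. The other 2 had lower means in Unc80 G/G, *Coro1a* with 21.4 and 19.7 CPM and *Lyz2* with 16.4 and 15.4 CPM. The part of such cells in the levels of *Gpsm3* and *Gngt2* was not tested.

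The RGS genes were described by the families that their domains define. The R4 family consists mostly of small proteins with little beyond the RGS domain. *Rgs4*, which acts on Gi/o and Gq proteins, had 82.8 CPM (S/S) and 89.0 CPM (G/G), 1.07-fold (log2 ratio 0.10, interval 1.03 to 1.12), the largest difference toward Unc80 G/G among members at 20 CPM or more. *Rgs3* stood on the other side, with 44.92 and 42.03 CPM (log2 ratio -0.10, interval 0.882 to 0.993). At 20 to under 100 CPM, where both lie, 15.6% of all genes have a counting interval that leaves out 1 and 2 of the 19 members, *Rgs3* and *Rgs4*, did. The SD between libraries of a genotype was 0.07 in the 442 of 5999 genes at that level with recovered reads. None of the 19 lay beyond 2 SD, beside 2.83% of all genes.

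*Rgs2*, which acts mainly on Gq and is itself induced by activity in neurons, had 38.8 and 36.9 CPM (log2 ratio -0.07, interval 0.892 to 1.013). *Rgs8* had 42.3 and 40.7 CPM. *Rgs16* had 7.74 and 8.32 CPM in the recovered Unc80 S/S libraries (205 and 210 reads) and 8.09 and 8.33 CPM in those of Unc80 G/G (205 and 206 reads). These overlapped, with a log2 fold change of 0.03 (SE 0.11, 95% interval -0.20 to 0.26, adjusted p = 0.99 from edgeR). Summed over its 5 members, the R4 family had 216.8 CPM in both genotypes.

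The R7 family, whose proteins are stable only when bound to the *Gnb5* product, summed to 155.5 CPM (S/S) and 155.1 CPM (G/G). *Rgs7* had 51.8 and 51.7 CPM and *Rgs6* 59.0 and 58.1 CPM. *Rgs11*, known from the bipolar cells of the retina, had 28.7 and 28.2 CPM. *Rgs9*, known from the striatum and from photoreceptors, had 16.0 and 17.1 CPM (log2 ratio 0.10, interval 0.971 to 1.179). The summed level of 5 striatum markers was 30.4 CPM (S/S) and 29.4 CPM (G/G), and its part in the level of *Rgs9* was not tested. None of the 4 intervals of the R7 genes left out 1.

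In the R12 family, *Rgs12*, a large scaffold with several other domains, had 111.8 and 108.2 CPM (log2 ratio -0.05, interval 0.933 to 1.005). *Rgs10*, a small member best known from microglia, had 19.4 and 19.6 CPM. *Rgs14* carries, besides the RGS domain, a GoLoco motif of the kind found in Gpsm proteins, and is known for restraining plasticity in area CA2 of the mouse hippocampus. It lies on chromosome 13 from 55369732 to 55384687 (GRCm38, GENCODE M21) and had 2.47 CPM (S/S) and 3.23 CPM (G/G), 1.31-fold (log2 ratio 0.39). These are about 128 and 162 reads, with an interval of the ratio of 1.030 to 1.661. Its libraries could not be recovered.

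The RZ family acts on Gz and Gi proteins. *Rgs17* had 105.8 CPM (S/S) and 105.7 CPM (G/G), and *Rgs19* had 7.64 and 7.73 CPM. *Rgs20*, whose product prefers the *Gnaz* protein, had 15.4 and 13.6 CPM, 1.13-fold lower in Unc80 G/G (log2 ratio -0.18, interval 0.795 to 0.978). It was the only 1 of the 7 members at 5 to under 20 CPM whose interval left out 1, beside 10.9% of all genes at that level. The SD between libraries of a genotype was 0.12 in the 620 of 4209 genes at that level with recovered reads. None of the 7 lay beyond 2 SD, beside 3.90% of all genes. *Gnaz* itself had 40.0 CPM in both genotypes. Per kilobase of exon, *Rgs4* held 22.6% and 24.2% of the summed level of the 15 RGS genes, and the next were *Rgs12* (11.2% and 10.7%) and *Rgs17* (10.8% and 10.7%). By the longest coding transcript *Rgs6* came first, with 17.0% and 16.8%, and *Rgs4* held 13.2% and 14.2%.

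Over all 5 classes the counting interval left out 1 for 12 of the 41 genes (29.3%), beside 15.5% of all genes. By level, the members were 3 of 3 under 5 CPM beside 8.31% of all genes, 1 of 7 at 5 to under 20 CPM beside 10.9%, 2 of 19 at 20 to under 100 CPM beside 15.6%, and 6 of 12 at 100 CPM or more beside 34.3%. The interval does not hold the spread between libraries, so a value outside it is not a call. The replicated test was possible for 5 members, *Gnai1*, *Gnai3*, *Gng3*, *Gng11* and *Rgs16*, and edgeR called none of the 5 at an adjusted p of 0.05, nor did any have an unadjusted p under 0.05 (0 of 5) in edgeR, DESeq2 or limma. Over all 2209 genes edgeR called 2 (0.0905%), both higher in Unc80 G/G, with 116 at an unadjusted p under 0.05.

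The other genes of the pathway that were looked up, 43 symbols for further subunits and RGS genes, receptor kinases, arrestins and direct effectors, were measured for 27 genes. None of the 27 reached 1.2-fold, beside 5.74% of all genes and 1.07% of those at 5 CPM or more. In Unc80 G/G 13 were higher and 14 lower, where 52.8% of all genes were lower, with a median log2 ratio of -0.002. The counting interval left out 1 for 7 of the 27, beside 15.5% of all genes. The largest log2 ratio, 0.197, was shared by *Gng13*, a gamma subunit of olfactory sensory neurons and taste cells, at 29.1 CPM (S/S) and 33.4 CPM (G/G) (1.146-fold, interval 1.069 to 1.230), and *Plcb2*, at 3.60 and 4.13 CPM (interval 0.938 to 1.409). In genes with recovered reads the SD between libraries of a genotype was 0.07 at the level of *Gng13*, which lay beyond 2 SD, beside 2.83% of all genes there. It was 0.25 at the level of *Plcb2*, which lay within 1 SD. Both were picked as the largest of the 27. Exons of *Chtf18* on the opposite strand cover 51.6% of the exon bases of *Gng13*. The summed level of 4 measured markers of olfactory sensory neurons was 180.1 CPM (S/S) and 194.2 CPM (G/G), and its part in the difference of *Gng13* was not tested.

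Downstream of the members, *Plcb1*, a phospholipase that Gq activates, had 233.4 and 247.0 CPM (log2 ratio 0.08, interval 1.032 to 1.085), beside the lower *Gnaq* mean in Unc80 G/G. *Kcnj3*, a subunit of the potassium channels that beta and gamma dimers open, had 237.8 and 236.4 CPM. The arrestin gene *Arrb1*, whose product ends receptor signaling, had 512.9 and 498.3 CPM, and *Arhgef12*, an effector of G12/13 proteins, had 425.9 and 426.1 CPM. *Rgs7bp*, which anchors R7 complexes in the membrane, had 196.0 and 201.5 CPM, and *Gprasp1*, a protein that sorts receptors for breakdown, had 691.8 and 680.2 CPM. *Rgs5*, an R4 gene that marks pericytes, had 84.3 and 89.9 CPM (interval 1.023 to 1.112). The other 4 markers of pericytes and smooth muscle had lower means in Unc80 G/G, *Acta2* with 4.36 and 2.93 CPM, *Tagln* with 4.36 and 3.63 CPM, *Myh11* with 6.62 and 5.61 CPM and *Pdgfrb* with 23.1 and 21.01 CPM. The part of such cells in the level of *Rgs5* was not tested.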

How the data were processed

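The members and lists were chosen with earlier results of these data known. Bulb RNA was sequenced as paired-end reads on an Illumina NextSeq. The authors trimmed the reads and aligned them to GRCm38 (mm10) in Partek Flow, while for aligner, annotation, counting and normalization nothing is given in the sources used here. The methods name a stranded total RNA kit and the labels an mRNA kit. The authors' deposited table holds 1 mean per genotype in CPM for 15818 genes, none under 1.01 CPM on average over the genotypes, and the deposited total read counts per library. Its 4 columns of the authors' own comparison (p-values, adjusted p-values, ratios and fold changes) were not used.

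Each genotype mean was decomposed into whole reads from 2 libraries, after taking off a constant of 0.0001 CPM. What 1 read is worth in each library came from differences between low means that recur exactly. A gene was kept if its solution was single and an accidental one had a chance under 1e-04, which left 2209 genes with reads in both genotypes. The procedure was tested on simulated data. These genes lean to low levels and were fitted with edgeR 4.0.16 (quasi-likelihood test, library size as counted reads, Benjamini-Hochberg adjustment over 2209 genes, adjusted p under 0.05) in R 4.3.3. DESeq2 1.42.0, limma 3.58.1 on log2(CPM + 1), TMM normalization, a minimum of 50 reads and leaving out each library were tried as alternatives. P-values measure the spread between pools. Other genes have genotype means only and no test. Ratios were compared at 1.2-fold, and levels per kilobase used the exon union in GENCODE M21. The genes named are all members and, of each pathway list, those past 1.2-fold and the gene of highest mean. *Gng13*, *Plcb2*, *Rgs7bp*, *Chtf18*, *Ptprc*, *Cd52*, *Coro1a*, *Lyz2*, *Acta2*, *Tagln*, *Myh11*, *Pdgfrb*, *Ttr*, *Tmem72*, *Kcnj13*, *Kl*, *Pbx2*, *Abi3* and *Bscl2* were named after their values were seen. The intervals of counting error, the SD of recovered genes by level and the overlap of exons were added after seeing the data. Intervals were computed with scipy 1.17.1 in Python 3.11.15.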

Additional observations from a re-analysis of the deposited data

How the results depend on the processing

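The number of members past 1.2-fold was 3 and stayed at 3 with 1 CPM added to the means or after division by the median ratio of all genes, was 4 at 1.1-fold, 1 at 1.5-fold and 0 among genes of at least 5 CPM. Alternatives chosen after seeing the data gave 12 when the counting interval was used in place of the fold, and 0 without members under 5 CPM and the 8 members whose exons overlap another gene by 10% or more. The median log2 ratio of the members was -0.022 and lay between -0.0228 and -0.0169 under its alternatives. For the 5 members with recovered reads no alternative gave a call, with adjusted p-values of 0.872 to 0.999, and 35 of 40 alternatives kept the sign of the log2 fold change. The other 5 came from leaving out a library in edgeR, where the lone library is assumed to vary like the other genotype. In these fits the log2 fold change ran from -0.0569 to 0.0122 for *Gnai1*, from -0.0764 to -0.0049 for *Gnai3*, from -0.0360 to 0.0010 for *Gng3*, from -0.1423 to 0.0430 for *Gng11* and from -0.0199 to 0.0841 for *Rgs16*. Over all recovered genes the 2 calls became 7 with TMM normalization, 1 with DESeq2, 0 with limma, 0 with a minimum of 50 reads, 0 to 2 with a library left out, with 2 when the larger Unc80 S/S library was left out and 0 without any of the other 3. The cause was not tested. No paired analysis was possible because the recovered libraries carry no replicate number. The share of the Gi/o family among the alpha genes was 58.4% (S/S) and 58.5% (G/G) by exon union, 50% and 50.2% by the longest coding transcript, and 70.6% and 70.7% without *Gnas* (added after seeing the data). Depth limits the members under 5 CPM, where about 48 to 162 reads stand behind a genotype mean.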
